A study of Homo sapiens with 14 samples.

Results

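A set of 10 genes that read, shorten, uncap and degrade messenger RNA in the cytoplasm was followed through a pooled CRISPR interference screen. They were chosen by symbol as PAN2, PAN3, YTHDF1, YTHDF2, YTHDF3, DCP2, DCP1A, EDC4, DDX6 and XRN1, 10 of the 16684 genes tested. Each was targeted by 5 guides at 1 start, 50 guides in all out of 89469 gene-targeting guides, and all 50 passed the count minimum of 50. In the screen, HEK293 FLP-In cells, derived from human embryonic kidney and fitted with a recombination site for transgenes, carried the delta opioid receptor (DOR) fused to the peroxidase APEX2 and the repressor dCas9-KRAB-BFP, from clonal populations. All groups shared this genotype and the hCRISPRi-v2-top5 guides, split into 7 sublibraries (H1 to H7), and on day 8 received DADLE, an opioid peptide that activates the receptor, at 10 µM for 90 minutes. The groups were the bottom (dimmest) and top (brightest) quartiles of each sublibrary, sorted after a reaction with Amplex UltraRed, a substrate that peroxidases turn fluorescent.

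Most cytoplasmic mRNAs are degraded by shortening of the poly(A) tail, removal of the 5′ cap and digestion from the 5′ end. PAN2-PAN3 is a deadenylase that trims the tail, a task it shares with the CCR4-NOT complex. YTHDF proteins bind N6-methyladenosine (m6A) in mRNA, and YTHDF2 is known for recruiting CCR4-NOT to methylated transcripts. DCP2 removes the cap with its activators DCP1A, EDC4 and DDX6, and XRN1 digests the uncapped RNA.

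Guides against 3 of the 10 genes, DDX6, YTHDF2 and PAN2, were more frequent in bright than in dim cells. The mean log2(top/bottom) was 0.71 for DDX6, 0.69 for YTHDF2 and 0.57 for PAN2, that is, 1.63-fold, 1.62-fold and 1.49-fold higher shares in the top library. The other 7 genes did not pass, and their means ran from -0.09 for EDC4 to 0.32 for PAN3. Over all 18116 gene starts tested, 2.35% passed on the bright side and 1.53% on the dim side, where 0 of the 10 genes lay. The same 3 genes had a mean of at least 0.5, a size that 1.89% of all starts reached. The median of the 10 means was 0.28, against 0.01 over all starts. Of the 50 guides, 41 lay above 0 (82.0%), against 51.1% of all gene-targeting guides, and in 5 of the 10 genes all 5 guides did, against 5.99% of all starts. These counts are descriptions, since the genes were chosen with earlier results of these data known.

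A gene's value here averages log2(top/bottom) over its guides, each library scaled to its total and centred on the median non-targeting guide of the sublibrary, and the SD is over guides. The p-values set a gene's 5 guides against the non-targeting guides of the sublibrary in a two-sided permutation test, adjusted by the Benjamini-Hochberg method over all 18116 starts, and values under 0.05 passed. There was 1 library per group and no repeated sort, so a p-value compares guides within one sort. Transcript and protein levels of the targets were not measured, so the strength of each knockdown is not known. No library came from unstimulated cells, so a change in the agonist response and any other change in the peroxidase signal cannot be told apart. The 12 libraries compared held 18054418 to 34636612 counts, with medians of 1193 to 2004 per listed guide, and H4, which was not compared, held none of the 10 genes. The SD of non-targeting guides was 0.240 in H2, 0.215 in H3, 0.228 in H5, 0.272 in H6 and 0.333 in H7, against 0.055 to 0.085 expected in these 5 sublibraries from counting alone.

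**Figure D1:**
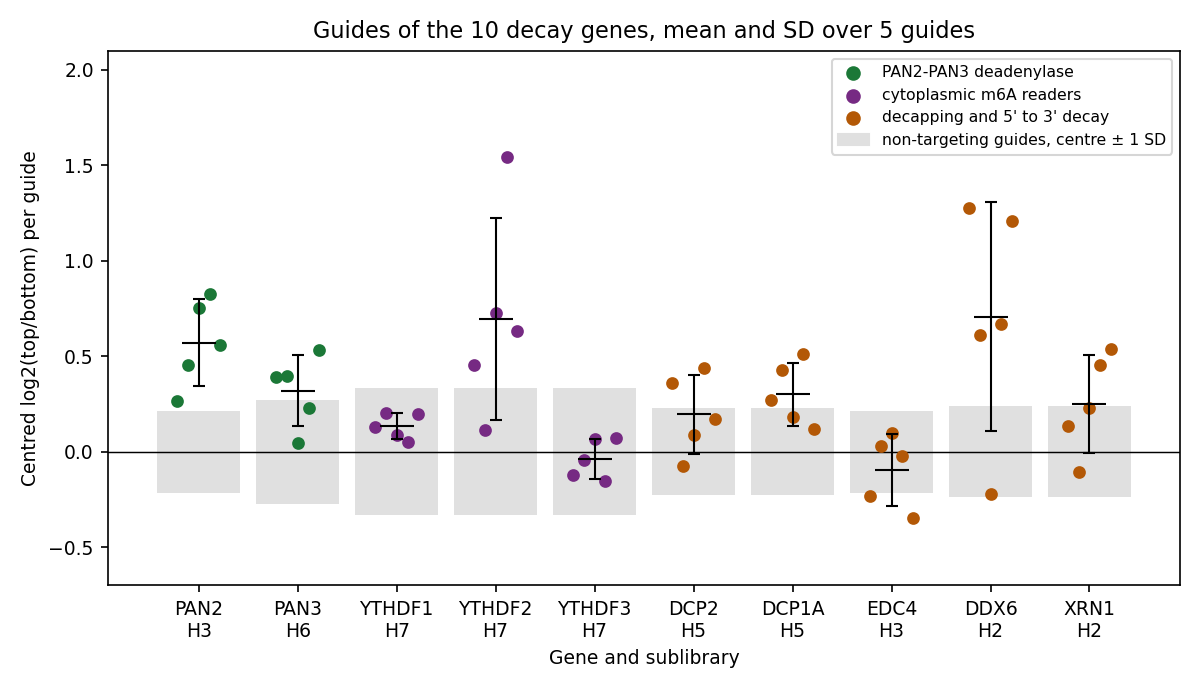
Centred log2(top/bottom) of each guide (coloured points, 5 per gene) for the 10 genes and their sublibraries, with the mean and SD over guides in black and, in grey, the centre ± 1 SD of the sublibrary's non-targeting guides. DDX6, YTHDF2 and PAN2 have means of 0.57 to 0.71, and the guides of YTHDF1 and YTHDF3 all lie within the grey band.

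CRISPR interference acts at a gene's transcription start, where dCas9-KRAB is directed by guides next to an NGG, the usual motif required by Cas9. The 150 bases before the RefSeq start (GRCh38.p14) of the 3 genes that passed are shown because guides against these genes were enriched in the bright quartile, with each GG of an NGG on the printed strand in capitals. They lie at chr12:56334001-56334150 on the minus strand for PAN2, chr1:28736474-28736623 on the plus strand for YTHDF2 and chr11:118791745-118791894 on the minus strand for DDX6. Guide names carry a strand and a position but no genome build, so the guides were not placed on these sequences.
PAN2: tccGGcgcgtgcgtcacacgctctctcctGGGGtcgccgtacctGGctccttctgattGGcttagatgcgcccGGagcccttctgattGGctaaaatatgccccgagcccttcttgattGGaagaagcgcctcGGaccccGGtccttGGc
YTHDF2: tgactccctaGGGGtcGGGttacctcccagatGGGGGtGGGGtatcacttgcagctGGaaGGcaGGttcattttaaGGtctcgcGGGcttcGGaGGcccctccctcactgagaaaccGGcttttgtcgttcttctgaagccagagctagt
DDX6: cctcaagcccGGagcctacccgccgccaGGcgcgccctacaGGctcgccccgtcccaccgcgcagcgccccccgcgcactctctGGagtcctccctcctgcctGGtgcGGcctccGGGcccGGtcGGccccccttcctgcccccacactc
On both strands together, overlapping matches included, NGG occurred 31 times before PAN2, 33 times before YTHDF2 and 50 times before DDX6. The median over 35116 promoters was 30 (5th to 95th percentile 9 to 52), and 99.99% held at least 1. The GC content was 62.0% for PAN2, 57.3% for YTHDF2 and 78.0% for DDX6, beside a median of 60.0%.

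PAN2, the catalytic subunit of the PAN2-PAN3 deadenylase, had guides enriched in bright cells of H3. Its 5 guides had 1058, 2295, 1209, 954 and 1372 counts in the bottom library and 1459, 3598, 2335, 1938 and 2313 in the top library, in the order of their positions. Every guide was higher in the top library, at log2 ratios of 0.27, 0.45, 0.75, 0.83 and 0.56. The 2 highest guides, on the plus strand 13 positions apart, were each reached by 1 of 290 non-targeting guides, and the lowest by 25. The mean was 0.57 ± 0.23 (SD, n = 5 guides; permutation adjusted p 6.45e-04, the smallest that 100000 draws could give here). Leaving out any 1 guide left the mean between 0.51 and 0.65, and PAN2 passed each time.

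PAN3, the adaptor that brings PAN2 to mRNA, was in H6. Its guides had 507, 1059, 1535, 2218 and 1463 counts in the bottom library and 874, 1831, 2076, 3415 and 2776 in the top library. After scaling and centring the log2 ratios were 0.39, 0.40, 0.04, 0.23 and 0.53. All 5 lay above 0, and 3 of them within the range of the PAN2 guides. The mean of 0.32 ± 0.19 (SD, n = 5 guides) did not pass (permutation adjusted p 0.184). PAN2 exceeded PAN3 by 0.25, a difference that did not pass in a two-sided exact permutation test over guides (p = 0.0952, also when adjusted over the 4 pairs tested). The genes were sorted in different sublibraries, so this difference also holds any difference between the H3 and H6 sorts.

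Of the m6A readers, all 3 in H7, YTHDF2 passed, and YTHDF1 and YTHDF3 did not. YTHDF2, the reader best known for mRNA decay, had 2295, 440, 4522, 1871 and 578 counts in the bottom library. In the top library its guides had 3224, 489, 7691, 5610 and 921. The log2 ratios were 0.45, 0.11, 0.73, 1.54 and 0.63, so that every guide was above 0 but the size differed widely between guides. The fourth guide, a 2.92-fold higher share in bright cells, was reached by 1 of 308 non-targeting guides, and the second by 99. The mean was 0.69 ± 0.53 (SD, n = 5 guides; permutation adjusted p 0.0101). Without the fourth guide it was 0.48, with a permutation adjusted p of 0.157, and without any other guide it passed. The call also ended with no count minimum (permutation adjusted p 0.347), with adjustment within sublibraries (permutation adjusted p 0.107) and with edgeR's quasi-likelihood test (adjusted p 0.0739).

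YTHDF1, the paralog best known for work on translation of methylated mRNA, had 2019, 1032, 2141, 469 and 2995 counts in the bottom library and 2271, 1220, 2333, 499 and 3528 in the top library. Log2 ratios of 0.13, 0.20, 0.09, 0.05 and 0.20 formed a narrow range in which each guide was slightly above 0. The mean was 0.13 ± 0.07 (SD, n = 5 guides) and did not pass (permutation adjusted p 0.813). The spread between these guides was close to the 0.059 expected from counting, and far below the 0.333 of non-targeting guides in H7.

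YTHDF3, the third paralog, had 1675, 204, 1729, 76 and 151 counts in the bottom library and 1581, 203, 1862, 70 and 163 in the top library. Its log2 ratios were -0.12, -0.05, 0.07, -0.16 and 0.07, on both sides of 0. The mean was -0.04 ± 0.11 (SD, n = 5 guides) and did not pass (permutation adjusted p 0.966). With 3 of 5 guides at no more than 204 counts, the spread expected from counting was 0.148, larger than the one observed.

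The differences between the readers were tested over guides with a two-sided exact permutation test, whose smallest p with 5 against 5 guides is 0.00794. It shuffles only the guides of both genes from one sort, so it takes in neither the spread of non-targeting guides nor that between sorts. YTHDF2 exceeded YTHDF3 by 0.73, with 5 of 5 YTHDF2 guides above every YTHDF3 guide (exact p = 0.00794, 0.0317 adjusted over 4 pairs). YTHDF2 exceeded YTHDF1 by 0.56, with 4 of 5 guides above every YTHDF1 guide (exact p = 0.0317, adjusted 0.0423). YTHDF3 minus YTHDF1 was -0.17 (exact p = 0.0317, adjusted 0.0423), a difference smaller than the SD of a single non-targeting guide in H7. Neither YTHDF1 nor YTHDF3 passed against the non-targeting guides. With medians in place of means these 3 adjusted p-values were 0.0952, 0.159 and 0.0952 by the same exact permutation test, and none passed. The pairs were chosen with earlier results of these data known, so their p-values are descriptions.

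**Figure D2:**
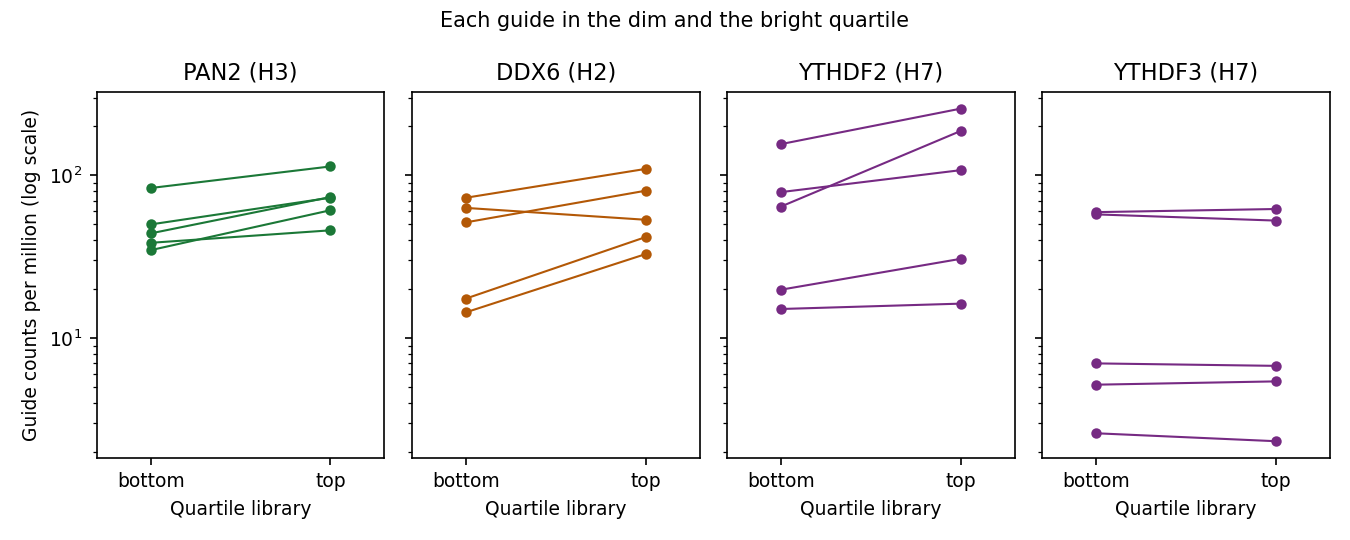
CPM, the share of the library total scaled up (log axis), of each of the 5 guides of PAN2, DDX6, YTHDF2 and YTHDF3 in the bottom and top quartile libraries, 1 line per guide, before centring. Lines of PAN2 and YTHDF2 all climb, 4 of 5 do for DDX6, and those of YTHDF3 are nearly flat, with 3 guides under 10 CPM.

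Among the decapping genes, DDX6, the helicase that links deadenylated mRNA to the decapping enzyme and holds mRNA in processing bodies, had guides enriched in bright cells of H2. Its guides had 470, 1954, 1693, 1380 and 387 counts in the bottom library and 1446, 3789, 1847, 2784 and 1137 in the top library. The log2 ratios were 1.27, 0.61, -0.22, 0.67 and 1.21, so that 4 guides were far above 0 and the third was below. The first, the fourth and the fifth guide lay above all 280 non-targeting guides of H2, the second above all but 1, whereas 236 non-targeting guides were at or above the third. The third guide and the fourth are 11 positions apart on the same strand by their names, and the fourth and the fifth 6. These guides thus lie close together. The mean was 0.71 ± 0.60 (SD, n = 5 guides; permutation adjusted p 6.45e-04). Leaving out any 1 guide left the mean between 0.57 and 0.94 and the permutation adjusted p at or below 0.00616, but the call ended by a rank sum test (exact, adjusted p 0.170) and with edgeR's quasi-likelihood test (adjusted p 0.134).

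DCP2, the decapping enzyme itself, had 439, 1487, 1826, 2081 and 910 counts in the bottom and 456, 1143, 1571, 2280 and 831 counts in the top library of H5. This gave log2 ratios of 0.36, -0.07, 0.09, 0.44 and 0.17, with 4 of 5 guides above 0. The mean of 0.20 ± 0.21 (SD, n = 5 guides) did not pass (permutation adjusted p 0.440).

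For DCP1A, the DCP2 activator, in H5 as well, the counts were 3035, 1049, 3067, 259 and 413 in the bottom and 2962, 1142, 2815, 299 and 363 in the top library. The log2 ratios were 0.27, 0.43, 0.18, 0.51 and 0.12, and no guide fell below 0. The mean of 0.30 ± 0.16 (SD, n = 5 guides) did not pass (permutation adjusted p 0.163), and the lowest value under 11 alternative settings was an adjusted p of 0.0545 by the exact rank sum test. DCP1A and DCP2 guides overlapped in their range.

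EDC4, the scaffold on which the decapping complex assembles, had 1450, 1471, 1410, 673 and 2166 counts in the bottom and 1415, 1723, 1729, 758 and 1948 in the top library of H3. The log2 ratios were -0.23, 0.03, 0.10, -0.02 and -0.35, on both sides of 0. The mean of -0.09 ± 0.19 (SD, n = 5 guides) was the lowest of the 10 genes and did not pass (permutation adjusted p 0.803).

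XRN1, the cytoplasmic exonuclease that digests uncapped mRNA, had 1935, 137, 1485, 973 and 817 counts in the bottom and 2697, 162, 2212, 1695 and 1508 in the top library of H2. The log2 ratios were 0.13, -0.11, 0.23, 0.45 and 0.54, the one below 0 belonging to the guide with the fewest counts. The mean was 0.25 ± 0.26 (SD, n = 5 guides) and did not pass (permutation adjusted p 0.248). Without that guide the mean was 0.34 and did not pass either (permutation adjusted p 0.102).

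In the order of the means, DDX6, YTHDF2 and PAN2 came first and differed from each other by less than the SD over the guides of any of them, so their order was not resolved. They ranked 184, 195 and 271 from the top of 18116 starts by mean, and 182, 321 and 222 after division by the non-targeting SD of their sublibrary. PAN3, DCP1A, XRN1, DCP2 and YTHDF1 followed, at ranks of 785 to 3242 by mean, and neighbours among them differed by less than the SD over the guides of either. YTHDF3 and EDC4 stood last at ranks 11645 and 14384. No other gene on the same chromosome had guides within 1000 positions of any guide of the 10 genes.

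Guide abundance was taken from the same counts as the log2 of a guide's bottom and top counts together, relative to the median non-targeting guide of the sublibrary. No library from before selection was among the samples, so the starting representation of a guide and loss of its cells cannot be told apart. YTHDF3 had the lowest mean abundance of the 10 genes, -1.69 ± 2.09 (SD, n = 5 guides), and 0.662% of all starts lay lower. Its guides ran from -4.02 to 0.59, with 2 near the non-targeting level and 3 far below it. XRN1 followed at -0.84 ± 1.58, with 9.06% of all starts lower, and DCP1A at -0.60 ± 1.60, with 16.5% lower. The 3 genes that passed lay higher than these: YTHDF2 had 0.63 ± 1.58, above 95.6% of all starts, PAN2 0.06 ± 0.47 and DDX6 -0.24 ± 0.80 (SD, n = 5 guides each). For these 3 genes the sum carries their enrichment in the top library: from the bottom library alone YTHDF2 had 0.25, PAN2 -0.28 and DDX6 -0.69, and from the top library alone 0.94, 0.31 and -0.06. DCP2, EDC4, PAN3 and YTHDF1 had -0.43, -0.28, 0.22 and 0.36, with SDs of 0.57 to 1.08 over guides. Over all starts the 5th and 95th percentiles were -1.04 and 0.60. Single non-targeting guides had an SD of 0.686 to 1.36 across the sublibraries, so the abundance of 5 guides is a coarse measure.

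**Figure D3:**
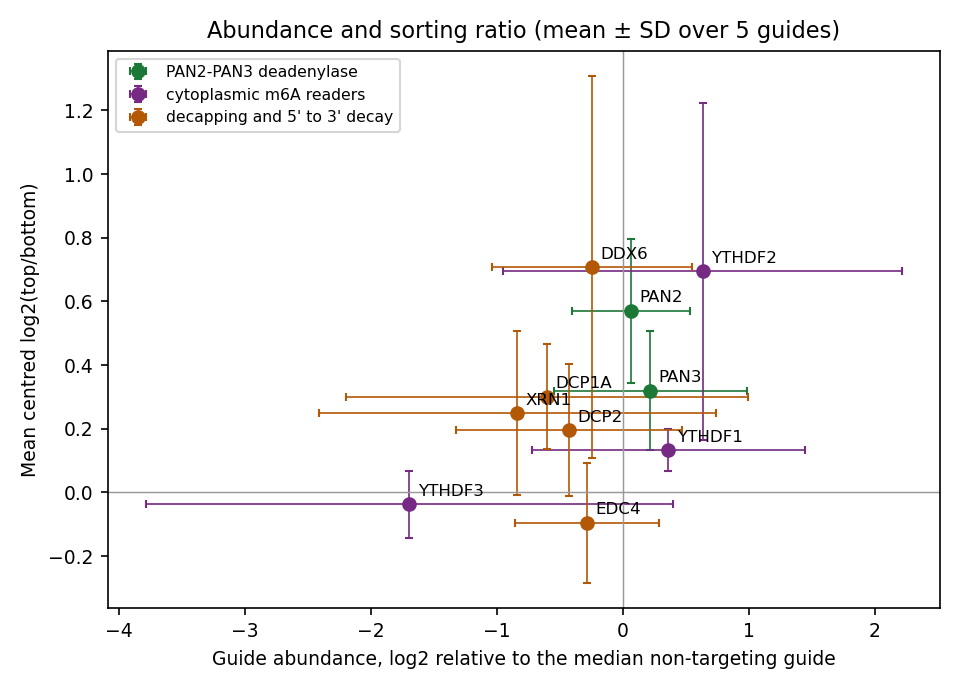
Mean guide abundance (log2 relative to the median non-targeting guide) against mean centred log2(top/bottom) for the 10 genes, with SDs over 5 guides as bars in both directions. YTHDF3 stands apart at an abundance of -1.69, and DDX6, YTHDF2 and PAN2 have abundances between -0.24 and 0.63.

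The partners of the 10 genes in mRNA decay were taken from 10 lists of 95 genes, 89 of which were compared, each at its primary start. Of these, 12 passed on the bright side (13.5%) and 5 on the dim side (5.62%), against 2.35% and 1.53% of all starts. The shares over all starts also cover second and transcript-named starts, so the sets differ in kind. The lists were chosen with earlier results of these data known, so these counts and those of each list are descriptions. In the CCR4-NOT list, the deadenylase that acts beside PAN2-PAN3 and with YTHDF2, 5 of 14 passed on the bright side and 1 on the dim side, with a median of 0.12. The scaffold CNOT1 had 1.71 ± 0.84, RQCD1, a further core subunit, 1.72 ± 1.48, CNOT3 0.45 ± 0.63, the catalytic CNOT8 0.36 ± 0.30 and BTG2, a protein that binds the catalytic subunits, 0.34 ± 0.08 (SD, n = 5 guides each). CNOT4, a ubiquitin ligase associated with the complex, was on the other side at -0.47 ± 0.15. CNOT1 and CNOT4 passed under 11 of 11 alternative settings, RQCD1 in 10, CNOT8 and BTG2 in 7 and CNOT3 in 5.

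LSM1 to LSM7 form the ring that binds the ends of deadenylated mRNA and activates decapping, and LSM2 to LSM7 also belong to a nuclear ring of the spliceosome. Of 8 genes with their partner PATL1, 5 passed on the bright and 0 on the dim side, against 2.35% and 1.53% of all starts. The median was 0.56. LSM6 had 2.41 ± 2.67, LSM2 0.88 ± 0.30, LSM7 0.87 ± 0.35, LSM5 0.65 ± 0.65 and LSM4 0.46 ± 0.43 (SD, n = 5 guides each). LSM1, the subunit particular to the cytoplasmic ring, had -0.01, and PATL1, which joins that ring to the decapping complex, had -0.02; neither passed. LSM3, a subunit of both rings, had the lowest mean of the list, -0.13 ± 0.77 (SD, n = 5 guides), and did not pass either (permutation adjusted p 0.739). The LSM6 mean rests in part on 1 guide that was not listed in the bottom library, whose ratio is set by the pseudocount, and without it the mean was 1.22. LSM2 and LSM7 passed under 11 of 11 alternative settings, LSM6 in 10, LSM5 in 9 and LSM4 in 8. Of 9 other decapping and processing body genes 0 passed, with a median of 0.00 and a range from -0.21 for LSM14A to 0.18 for DCP1B, the paralog of DCP1A. At the shares over all starts, 0 of 9 does not set these genes apart. EDC3, another decapping activator, had -0.04.

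The m6A list held the enzymes that write and erase the mark, its nuclear reader and another reader. Of 12 genes 0 passed on the bright side, against 2.35% of all starts, and 3 on the dim side, against 1.53%. The dim side was opposite to YTHDF2, and the median of the list was -0.03. CBLL1 and ZC3H13, accessory subunits of the writer, had -1.39 ± 0.41 and -0.50 ± 0.30, and the nuclear reader YTHDC1 had -1.20 ± 0.37 (SD, n = 5 guides each), each passing under 11 of 11 alternative settings. The catalytic METTL3 had 0.02, its partner METTL14 had -0.08 and the writer subunit WTAP had 0.12, and they did not pass.

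The AU-rich element list, RNA-binding proteins that act on mRNA stability, had 2 of 8 on the bright side and 1 on the dim side. Its median was -0.09, and the shares over all starts were 2.35% on the bright and 1.53% on the dim side. ZFP36L2 and ZFP36L1, which recruit CCR4-NOT, had 1.21 ± 0.72 and 0.53 ± 0.19, and RC3H2, an RNA-binding repressor that also uses CCR4-NOT, had -0.47 ± 0.46 (SD, n = 5 guides each). ZFP36L2 passed under 11 of 11 alternative settings, ZFP36L1 in 10 and RC3H2 in 9. RC3H2 lost its call by the exact rank sum test (adjusted p 0.0894) and with edgeR's quasi-likelihood test (adjusted p 0.235), and without its guide farthest from 0 the mean was -0.28. Among the 14 compared genes of the 3′ to 5′ exosome and its SKI cofactor 0 passed, with a median of 0.10. For 9 genes of nonsense-mediated decay, 10 of microRNA silencing and 4 of the poly(A) tail list 0 passed, with medians of 0.09, 0.05 and 0.06. At the shares over all starts, 0 in lists of these sizes does not set their genes apart. DXO, the only one compared in the list of other 5′ to 3′ exonucleases, had 0.07 and did not pass.

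**Figure D4:**
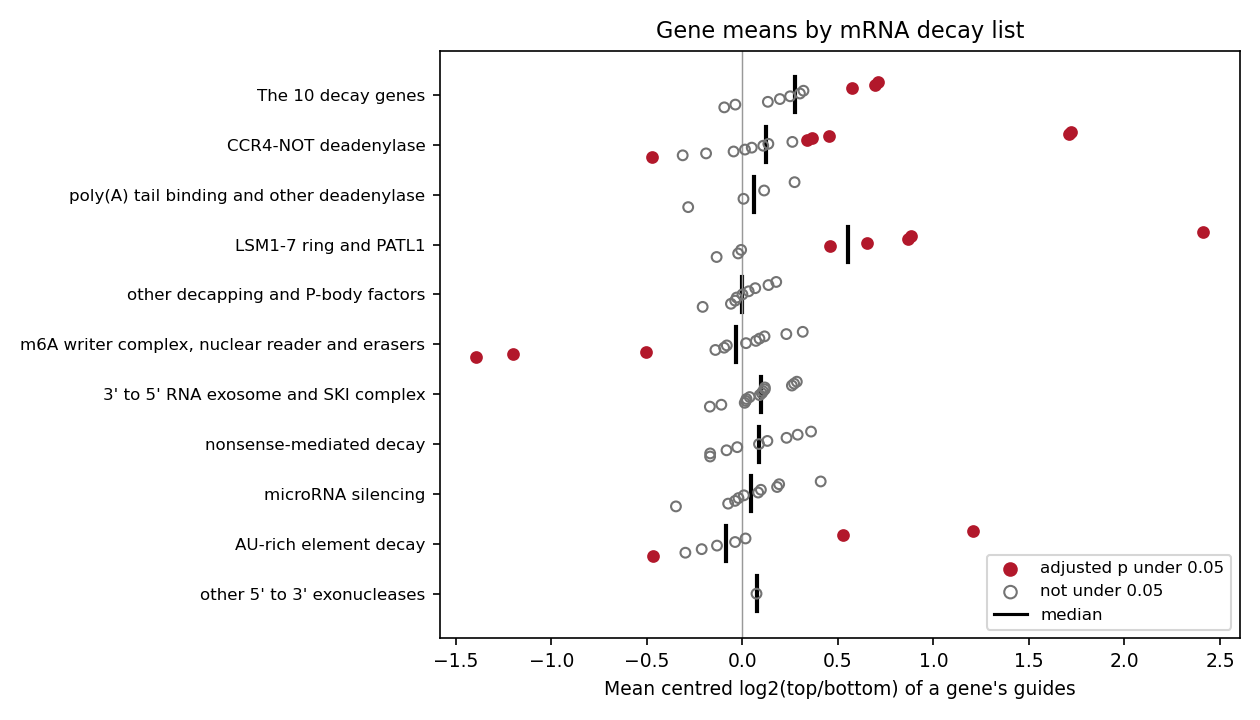
Mean centred log2(top/bottom) of each gene in the 10 decay genes and the 10 partner lists (1 point per gene; filled, permutation adjusted p under 0.05; open, not under it), with the list median as a black bar. The CCR4-NOT and LSM lists have 5 filled points each above 0, and all 3 filled points of the m6A list lie below 0.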

How the data were processed

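Guide counts came from 13 of 14 libraries of one screen; the authors deposited whole-number counts per guide, with no normalization. Bowtie is named, without version, per the submitters' processing notes; no source used here gives the counting settings or the genome build. Guides absent from one library of a pair were taken as 0. The H4 top table breaks off within a guide name, so H4 was not compared, and its bottom counts served only to look for neighbouring guides. Log2(top/bottom) with a pseudocount of 1 was computed for 91088 of 91463 guides with at least 50 counts in either library, and averaged per gene start with at least 3 guides. The permutation test used 100000 draws from a target's own and the non-targeting guides (241 to 308), with Benjamini-Hochberg adjustment over all 18116 targets (Python 3.11.15, numpy 2.4.6). One library per group leaves edgeR (4.0.16) no residual degrees of freedom for single guides, so its quasi-likelihood test was an alternative, on 17071 targets with 5 guides as blocks. Counting errors cover read sampling only, as PCR reads are not independent molecules. The tests were run on simulated counts with normally distributed guide ratios. Real non-targeting guides reached farther (up to 1.82 in H7, with an SD of 0.333), so that check does not give the error rates in these data. The members, lists and tests were chosen with earlier results of these data known. Named were all members, and list genes that passed (up to 4 per list; CNOT8, BTG2 and LSM4 are added so that each whole count is listed, and LSM1, LSM3, PATL1, LSM14A, DCP1B, EDC3, METTL3, METTL14, WTAP and DXO were chosen after their values were seen). The RefSeq promoter table (GRCh38.p14) held 9 of the 10 genes by symbol; the PAN3 entry starts elsewhere than the gene annotation and was not used.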

Additional observations from a re-analysis of the deposited data

How the results depend on the processing

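Under the 11 alternative settings the mean log2 ratio changed sign in 0 of the 10 genes. PAN2 passed in 11 of them (0.51 to 0.71), DDX6 in 9 (0.57 to 1.05) and YTHDF2 in 8 (0.48 to 0.97), and the other 7 genes in 0. With edgeR's quasi-likelihood test and guides as blocks, 260 of 17071 targets were called in place of 704 of 18116, 1 of the 10 genes (PAN2) in place of 3, and 5 partner list genes on the bright side in place of 12; the cause was not tested. Between readers, the differences of medians were 0.50 for YTHDF2 minus YTHDF1, -0.18 for YTHDF3 minus YTHDF1 and 0.68 for YTHDF2 minus YTHDF3, and none of the 3 passed. Guide abundance from the bottom or the top library alone moved by less than the SD over guides in each gene, though PAN2 changed sign (0.06 with both, -0.28 from the bottom and 0.31 from the top). No paired analysis was possible because each group holds 1 library. For the same reason no library could be left out, and the spread between sorts is unknown. Low counts limit YTHDF3, with 76 and 70 counts for 1 guide.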
